A study of Homo sapiens with 24 samples.

Results

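Cytosolic ribosomal proteins were read from Illumina expression arrays of prostate cell lines labelled as carrying a HIP1 construct or an empty vector. Members were the probes whose only annotated symbol was a cytosolic ribosomal protein name (RPS or RPL with a number and at most a final A, X or L, or one of RPSA, RPLP0, RPLP1 and RPLP2). This gave 120 probes for 72 genes among the 48803 probes of the array (18852 genes), 45 probes for 26 genes of the small (40S) subunit and 75 probes for 46 genes of the large (60S) subunit. No named probe was found for RPSA, RPLP0 or RPS27A, which were not analysed here.

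Each of the 4 groups held 6 arrays, described by the submitters as biological replicates. PNT1a is an immortalised line of prostate epithelium; its cells were stably transfected with HIP1 or with empty vector, and G418, the drug that selects for the vector, was kept at 0.8 mg/ml in both. LNCaP is a prostate cancer line, transiently transfected with HIP1 or with empty vector and collected at day 4. All cells grew in RPMI with 10% FBS, and total RNA was turned into biotin-labelled cRNA. HIP1 encodes an adaptor protein of clathrin-coated vesicles. The labels do not say whether the stable lines are single clones or pools. Line, mode of transfection and drug differ together, so they cannot be told apart in any comparison between PNT1a and LNCaP.

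A ribosome holds a single copy of nearly every one of its proteins. Small-subunit proteins surround the decoding site and the messenger RNA channel, and large-subunit proteins surround the site where peptide bonds form and the exit tunnel. Their messenger RNAs are among the most abundant of a growing cell. Most begin with a C followed by an unbroken run of pyrimidines, the TOP motif, through which mTOR signalling and the RNA-binding protein LARP1 set how well they are translated. A few members have paralogs with narrow expression, such as RPL10L and RPL39L in male germ cells and RPL3L in muscle, and several free ribosomal proteins bind the p53 regulator MDM2.

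The annotated starts of the members were searched for that run in the RefSeq start windows (GRCh38.p14), as a C within 5 bases of the start that opens a stretch of at least 5 letters holding only C and T. It was found at 54 of 71 member starts (76.1%), against 21.1% of all 35116 starts. On the opposite strand the same search found 9.86% of member starts, against 18.6% of all starts. Of the 72 member genes, 60 had an entry and 50 of these held the run at 1 or more starts. The windows below show 30 bases each, from 10 bases before the annotated start, with the run in capitals. RPS23, RPS28, RPL29, RPL14 and RPL17 are shown because probes of theirs were well above PNT1a in LNCaP, RPS19 and RPL18 because they differed the other way, and RPS27 and its paralog RPS27L, RPL39 (whose paralog is RPL39L) and the retrogene RPL10L because the paralogs are described on their own. They were chosen after their values were seen.
RPS23 (chr5:82278335-82278364, minus strand): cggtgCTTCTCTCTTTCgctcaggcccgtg
RPS28 (chr19:8321486-8321515, plus strand): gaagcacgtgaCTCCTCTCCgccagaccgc
RPL29 (chr3:51995876-51995905, minus strand): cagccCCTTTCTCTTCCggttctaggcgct
RPL14 (chr3:40457329-40457358, plus strand): ggtcttCTTCCTTCTCgcctaacgccgcca
RPL17 (chr18:49492446-49492475, minus strand): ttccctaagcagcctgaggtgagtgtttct
RPS19 (chr19:41860245-41860274, plus strand): ccccgtcgttCCCTTTCCCCTggctggcag
RPL18 (chr19:48619159-48619188, minus strand): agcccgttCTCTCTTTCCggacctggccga
RPS27 (chr1:153990752-153990781, plus strand): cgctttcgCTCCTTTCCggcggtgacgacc
RPS27L (chr15:63157458-63157487, minus strand): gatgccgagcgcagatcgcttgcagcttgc
RPL39 (chrX:119791611-119791640, minus strand): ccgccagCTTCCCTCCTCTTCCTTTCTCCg
RPL10L (chr14:46651762-46651791, minus strand): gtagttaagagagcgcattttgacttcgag
The run stood in the windows of genes that were higher and of genes that were lower in LNCaP, and the windows of RPL17, RPS27L and RPL10L did not hold it. Such a match describes letters only.

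Values are log2 intensities as deposited, already brought to a common distribution across arrays, so a difference says how a probe stood relative to the rest of its array. A probe was tested in a line if it exceeded 6.97, a level set above the peak of dim probes, on at least 6 of the 12 arrays of that line. Of the 120 member probes, 111 were tested in LNCaP, 109 in PNT1a, 107 in both and 7 in neither. A probe was called when limma's moderated test, adjusted by Benjamini-Hochberg over all probes tested, gave a p under 0.05. The HIP1 probe itself did not separate the groups. It read 7.79 ± 0.35 on HIP1-labelled and 7.69 ± 0.21 on vector arrays of PNT1a (SD, n = 6 each; adjusted p = 0.703), and 7.29 ± 0.15 against 7.40 ± 0.16 in LNCaP (adjusted p = 0.451). Whether that probe reports the construct was not tested, so the groups are called HIP1-labelled throughout. Of the line markers, KLK2, KLK3 and TMPRSS2 (luminal prostate) exceeded the level on every LNCaP array and on no PNT1a array, and FOLH1 on every LNCaP array and 2 PNT1a arrays. The other luminal markers did not separate the lines this way: KRT8 exceeded the level on all 24 arrays and averaged 9.60 in LNCaP vector and 11.15 in PNT1a vector cultures, and KRT18 exceeded it on every LNCaP array and on 5 of 6 in each PNT1a group. Of the basal and intermediate markers, KRT5, KRT14 and ITGA6 were below the level on all 24 arrays, CD44 was above it on every PNT1a array and no LNCaP array, and VIM was above it on all 24. PNT1a arrays also carried 3 of 6 fibroblast markers (COL1A1, PDGFRB and THY1) and 2 of 4 leukocyte markers (CD14 and CD68) on every array, with PTPRC, CD3E, COL1A2, COL3A1 and DCN below the level on all 24 arrays.

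Member probes sat near the top of the intensity scale in both lines. Their median on vector arrays was 13.10 in LNCaP and 12.72 in PNT1a, against 8.36 and 8.33 over all tested probes, and members took 31 of the 100 brightest places in LNCaP and 26 in PNT1a. Levels of different probes are not compared as transcript amounts, because probes differ in how well they bind. The brightest members were RPL41, the smallest large-subunit protein, in both lines, followed by RPS29 and RPS25 in LNCaP and by RPS10 and RPS29 in PNT1a. The RPL41 probe ILMN_2331890 averaged 15.39 ± 0.08 in LNCaP vector and 15.44 ± 0.07 in PNT1a vector cultures (SD, n = 6 each), where the highest value of the whole table was 15.52.

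Other probes of the set stayed at the background. Both RPL10 probes were below the level on all 24 arrays, with group means from 6.26 to 6.70, and so was the probe for muscle RPL3L, at 6.42 to 6.50. Whether the RPL10 probes report its transcript was not tested, so their values do not show that RPL10 is absent. Of the probes just above the filter, RPL41's ILMN_1710001 passed on 9 of 12 PNT1a arrays (median 7.10), and just below it RPL37A's ILMN_1808757 passed on 5 (median 6.94). The dimmest tested genes by their brightest probe were RPL37, RPL10L and RPL7 in LNCaP and RPL37, RPL14 and RPL36A in PNT1a.

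**Figure D1:**
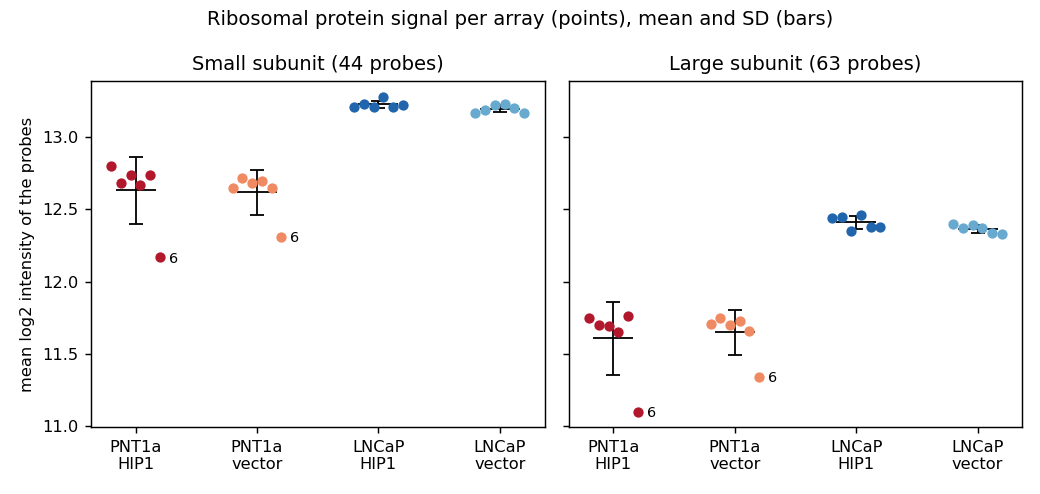
Mean log2 intensity of the ribosomal protein probes tested in both lines, per array (points), with the group mean and SD (bars, n = 6), for 44 small-subunit probes at left and 63 large-subunit probes at right. LNCaP arrays sit close together above all PNT1a arrays, and the PNT1a arrays numbered 6 lie below the other 5 of their group.

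Averaged over the 107 probes tested in both lines, the arrays read 12.68, 12.71 and 12.73 (lowest, median and highest) in LNCaP vector cultures, against 11.74, 12.10 and 12.15 in PNT1a vector cultures. HIP1-labelled arrays spanned 12.71, 12.74 and 12.80 in LNCaP, with 11.54, 12.11 and 12.18 in PNT1a. The plot of array means shows that the 2 PNT1a arrays numbered 6 stood apart from the other 10, at 11.54 (HIP1-labelled) and 11.74 (vector), where the others of their groups lay between 12.07 and 12.18. Over the other 10192 probes tested in both lines the array means were nearly fixed, at 8.95 in LNCaP and 8.90 in PNT1a. The mean pairwise correlation between member probes across the 12 arrays of PNT1a, after group means were removed, was 0.26 and came to 0.05 without the arrays numbered 6. In LNCaP it was 0.01.

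LNCaP vector cultures had more ribosomal protein signal than PNT1a vector cultures for most members. Of 113 probes tested in either line, 78 were higher and 10 lower in LNCaP (77.9% called), where 76.5% of all 13936 probes were called. The direction was uneven among members: 69% were higher and 8.85% lower, against 39.6% higher and 36.9% lower over all probes. Their median difference was 0.45, with 0.03 over all probes, and 30 members differed by at least 1 on the log2 scale. Arrays of the lines did not overlap for 64 members higher and 8 lower in LNCaP, where 58.3% of all probes did not overlap (30.7% higher and 27.6% lower). Of the 113 probes, 6 passed the filter in 1 line only, which selects for a difference; the 107 tested in both lines split into 74 higher and 8 lower, with a median of 0.49. By gene, 55 were called higher, 9 lower and RPL36 in both directions by different probes. In bulk RNA, fewer cells making a transcript and less of it per cell cannot be told apart.

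Both subunits shifted the same way. In the large subunit 53 of 69 probes were higher and 7 lower in LNCaP, with a median of 0.67. Among small-subunit probes 25 of 44 were higher and 3 lower, with a median of 0.35. The 6 probes that passed the filter in 1 line only, 4 called higher and 2 lower, were all of the large subunit, which affects its counts. Over probes tested in both lines, the 63 of the large subunit averaged 12.37 in LNCaP vector and 11.65 in PNT1a vector cultures. The 44 of the small subunit averaged 13.20 and 12.62. The difference between subunits was not tested.

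**Figure D2:**
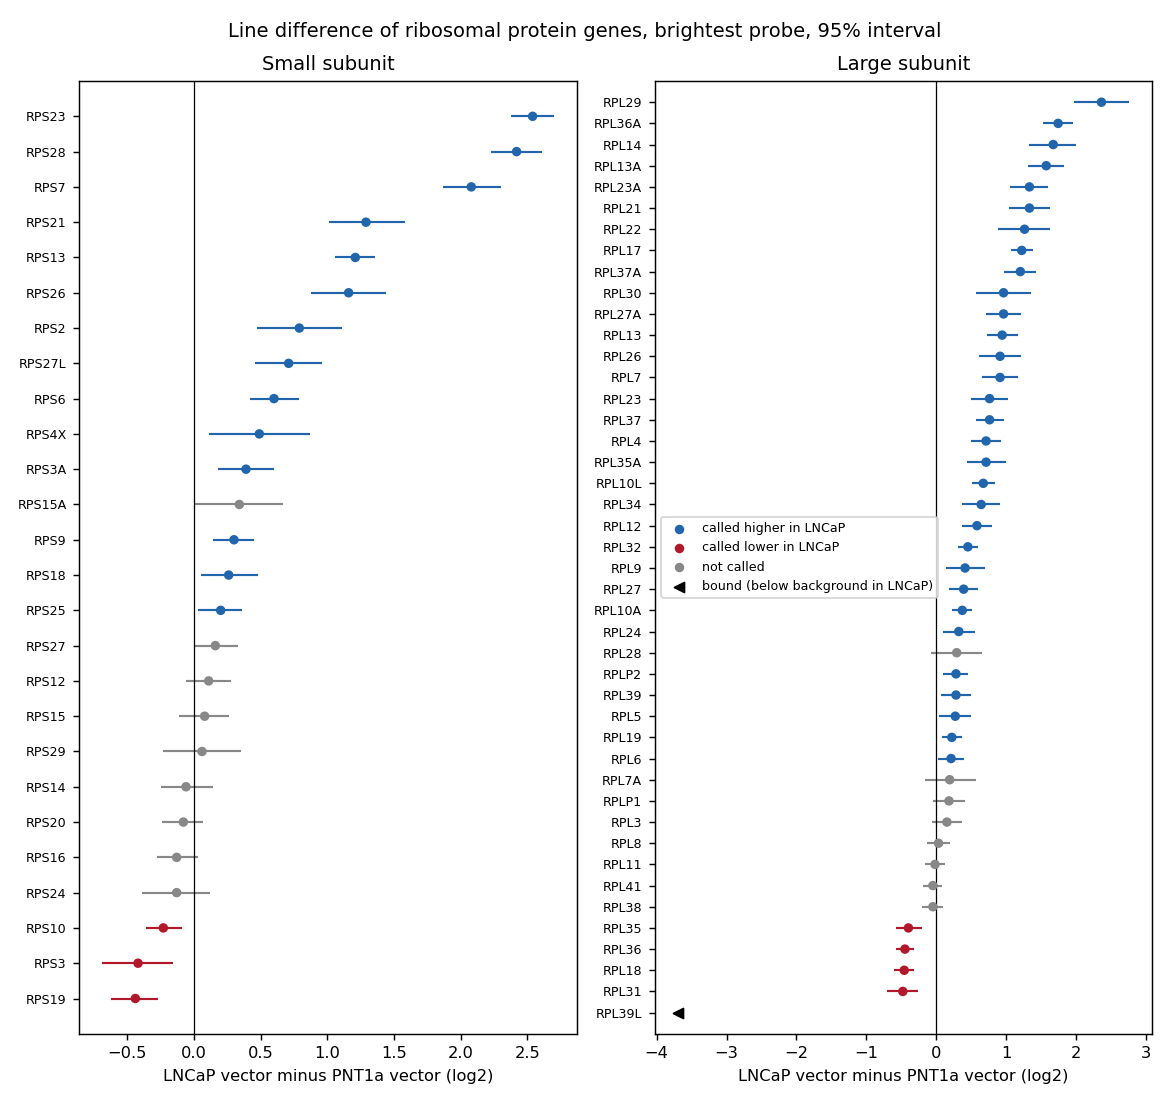
Difference between LNCaP vector and PNT1a vector cultures (log2, x axis) for each ribosomal protein gene by its brightest tested probe, with 95% intervals (n = 6 arrays each), small subunit at left and large subunit at right on separate scales. RPS23, RPS28, RPS7 and RPL29 exceed 2. RPL39L, below background on all LNCaP arrays, is drawn as an arrow at its bound, 3.70 lower in LNCaP, with no interval.

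By the brightest probe of each gene, the largest small-subunit rises in LNCaP belonged to RPS23, which lines the decoding centre, RPS28, and RPS7, one of the proteins that bind MDM2. RPS23 read 11.04, 11.16 and 11.22 (lowest, median and highest) in LNCaP vector cultures, against 8.39, 8.66 and 8.73 in PNT1a vector cultures, a difference of 2.54 (95% interval 2.38 to 2.70; adjusted p = 8.76e-14). RPS28 spanned 11.78, 11.89 and 12.32 in LNCaP, against 9.37, 9.55 and 9.67 in PNT1a, a difference of 2.42 (adjusted p = 1.37e-12). Neither gene had overlapping arrays. Both probes of RPS7 gave like values, 2.08 for ILMN_1750722 and 2.23 for ILMN_2070072 (adjusted p = 3.64e-11 and 1.30e-10). The first read 11.63, 11.68 and 11.82 in LNCaP, against 9.10, 9.71 and 9.79 in PNT1a.

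In the large subunit RPL29, RPL36A and RPL14 led by the same rule. RPL29's probe ILMN_1737517 spanned 11.17, 11.39 and 11.51 in LNCaP vector cultures, against 7.96, 9.21 and 9.35 in PNT1a vector cultures, a difference of 2.36 (95% interval 1.96 to 2.76; adjusted p = 1.22e-08), and its other probe gave 2.35. RPL14's brightest probe differed by 1.67 (adjusted p = 1.06e-07). Its other probe, ILMN_2404850, read 9.83, 9.86 and 10.27 in LNCaP and stayed below the background level on all PNT1a arrays, at 6.56, 6.63 and 6.74. It was at least 8.05-fold brighter in LNCaP with the background level as the floor for PNT1a, given as a description because the probe entered only through LNCaP. For RPL36A the arrays read 9.20, 9.38 and 9.49 in LNCaP, against 7.24, 7.63 and 7.88 in PNT1a, a difference of 1.74 (adjusted p = 2.08e-10). None of these probes had overlapping arrays.

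RPL17, a protein at the mouth of the exit tunnel, was higher in LNCaP by all 3 probes, most by its dimmest. That probe, ILMN_1655422, read 12.52, 12.71 and 12.89 in LNCaP vector cultures, against 9.44, 10.35 and 10.77 in PNT1a vector cultures, without overlap (2.40; adjusted p = 4.18e-09). The brighter 2 gave 1.36 and 1.22 (adjusted p = 4.48e-08 and 6.47e-10).

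RPL39L, the paralog of the exit-tunnel protein RPL39, ran the other way. Its probe ILMN_2108357 read 6.44, 6.54 and 6.74 in LNCaP vector cultures, all below the background level, against 10.07, 10.74 and 10.91 in PNT1a vector cultures. This was at least 13.0-fold lower in LNCaP, and the other RPL39L probe was at least 9.35-fold lower. Both are descriptions, since the probes passed the filter only through PNT1a. RPL39 itself read 13.97, 14.16 and 14.29 in LNCaP, against 13.43, 13.95 and 14.03 in PNT1a, with overlapping arrays and a difference of 0.28 (adjusted p = 0.0223). That call was lost without LNCaP vector array 1 or 2 (differences down to 0.19 over single arrays left out, adjusted p up to 0.0518). The probe of the retrogene RPL10L was higher in LNCaP, at 8.45, 8.69 and 8.84 against 7.92, 7.97 and 8.17 (0.67, adjusted p = 9.59e-07). Its parent RPL10 had no probe above background, and whether the RPL10L probe also binds RPL10 transcripts was not tested. RPS27L, a p53-induced paralog of RPS27, read 13.34, 13.43 and 13.53 in LNCaP, against 12.14, 12.80 and 12.97 in PNT1a (0.71, adjusted p = 5.11e-05). The brightest probe of RPS27 differed by 0.16 (adjusted p = 0.0613). Its dimmer probe ILMN_1696839 was called higher in LNCaP, by 0.82, so RPS27 itself was not uniformly unchanged.

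**Figure D3:**
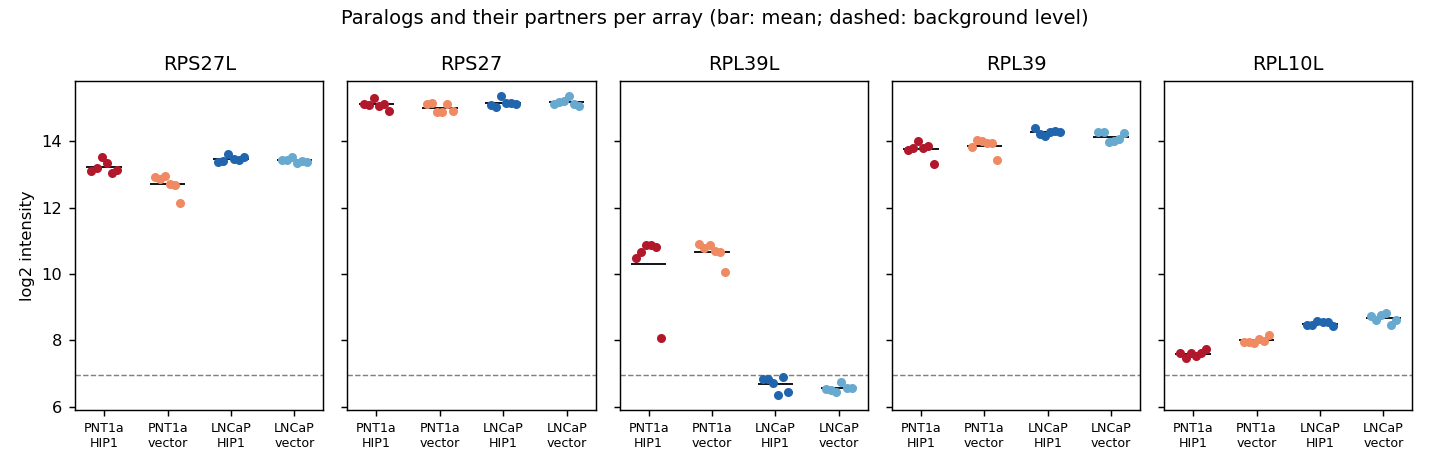
Log2 intensity per array (points; bar, group mean, n = 6) of the paralogs RPS27L, RPL39L and RPL10L and of the partners RPS27 and RPL39, with the background level of 6.97 dashed. RPL39L is below that level on all LNCaP arrays, and RPS27L on HIP1-labelled PNT1a arrays lies above its vector arrays.

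The remaining members lower in LNCaP moved by less than 0.5. RPL18 read 14.53, 14.55 and 14.72 in LNCaP vector cultures, against 14.94, 15.03 and 15.21 in PNT1a vector cultures (-0.46; adjusted p = 1.21e-05). RPS19, the gene most often mutated in Diamond-Blackfan anaemia, spanned 13.54, 13.77 and 13.94 in LNCaP, against 14.12, 14.19 and 14.45 in PNT1a (-0.44; adjusted p = 1.65e-04). Neither had overlapping arrays. RPL31 (-0.48), RPL36 by its brightest probe (-0.45), RPS3 (-0.42), RPL35 (-0.40), RPS10 (-0.23) and RPL38 by its dimmer probe (-0.15) were also called lower. Of the 88 calls, 7 were lost on leaving out some single array: those of RPL39 and RPL5 described here, of RPL38's dimmer probe (adjusted p up to 0.0984), and of RPL6, RPS18, RPS25 and a dim RPL37A probe (differences 0.20 to 0.26; adjusted p up to 0.0881). For RPL38 these were LNCaP vector array 1, 2, 4, 5 or 6 and PNT1a vector array 1, 2 or 6, and for RPL6 they were LNCaP vector array 3, 4, 5 or 6 and PNT1a vector array 2, 3 or 4. RPS18 lost its call without LNCaP vector array 3 or PNT1a vector array 5, RPS25 without LNCaP vector array 1, 2 or 5 or PNT1a vector array 2 or 6, and RPL37A without vector array 1, 3, 4 or 5 of either line.

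Members with roles outside the ribosome did not share a pattern. RPL5 and RPL11 carry the 5S RNA and bind MDM2: RPL5 was 0.27 higher in LNCaP vector cultures (adjusted p = 0.0332) and the brighter RPL11 probe differed by -0.02 (adjusted p = 0.825). The RPL5 call was lost on leaving out vector array 1, 3 or 5 of either line (differences 0.21 to 0.35, adjusted p up to 0.0829). RPS6, the substrate of S6 kinase, was higher by both probes (0.60 and 0.76; adjusted p = 1.09e-05 and 5.60e-07). RPL22, which binds RNA outside the ribosome as well, was 1.26 higher (adjusted p = 8.82e-06). The brightest probe of RPS14, the 5q- syndrome gene, differed by -0.06 (adjusted p = 0.587). In the stalk, RPLP2 was 0.28 higher (adjusted p = 7.02e-03), and the brightest probe of its partner RPLP1 gave 0.18 (adjusted p = 0.136). The dimmer RPLP1 probes ILMN_1689725 and ILMN_2386530 were both called higher, by 0.69 and 0.43.

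The size of the difference moved with brightness. Among members with a mean level between 10 and 12, 16 of 17 (94.1%) were higher in LNCaP with a median of 1.38, and between 14 and 16 it was 14 of 34 (41.2%) with a median of 0.15. Other probes of those ranges were higher in 41.6% and 38.8%, with medians of 0.06 and -0.01. Between 12 and 14, members were higher in 72.7% of 33 and other probes in 41.1% of 394. The dimmer ranges had smaller member medians than 10 to 12. Below 8, members were higher in 85.7% of 7 (median 0.76), and between 8 and 10 in 81.8% of 22 (median 0.93). Other probes there were higher in 37.6% and 41%. All 6 members that passed the filter in 1 line only lie below 10, which selects for a difference. Below 8 they were 1 probe of RPL37A and ILMN_1782167 and ILMN_1798636 of RPL32, which passed only in LNCaP. Between 8 and 10 they were RPL14's ILMN_2404850 (LNCaP only) and both RPL39L probes (PNT1a only). Member shares below 10 are therefore descriptions. The part of scanner range and of probe binding in this was not tested.

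Probes of a gene often gave the same direction and different sizes. Of 31 genes with several tested probes, 27 had every probe on the same side of 0 in the line comparison, with a median gap of 0.51 between the lowest and the highest difference, and 10 genes had a gap of at least 1. For RPS24, a small-subunit protein with several spliced forms, ILMN_2399893 gave 2.16 (adjusted p = 2.01e-11) and the brighter ILMN_1656625 gave -0.13 (adjusted p = 0.327). The dimmer one read 11.76, 12.19 and 12.22 in LNCaP vector cultures, against 9.63, 9.96 and 10.11 in PNT1a vector cultures, without overlap. The brighter one read 12.38, 12.72 and 13.10, against 12.51, 12.95 and 13.00, with overlap. For RPS15, ILMN_2219131 gave 1.94 and the other probes -0.09 and 0.08, and RPL8 had 1.79 and 0.03. RPL36 was the 1 gene whose probes were called in opposite directions, at -0.45 (level 14.12) and 0.49 (level 8.90). Between HIP1-labelled and vector arrays, every probe had the same sign at 20 of 29 such genes in PNT1a and 20 of 30 in LNCaP. All probes were called for 1 of these genes in PNT1a and 0 in LNCaP, and only some for 11 and 5. Ribosomal protein genes have many processed pseudogenes, and which transcripts or copies each probe binds was not tested.

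The line comparison, which holds vector arrays only, stood with PNT1a vector array 6 left out, at 79 members higher and 11 lower and a median of 0.40. Summed over each list, the fibroblast markers read 38.58 to 39.53 in LNCaP vector and 46.29 to 47.52 in PNT1a vector cultures, and the leukocyte markers 26.21 to 26.77 and 31.32 to 34.03. Their part in the result was not tested.

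In PNT1a, HIP1-labelled and vector cultures differed at few members and in both directions. Of 109 tested probes 8 were higher and 12 lower (18.3%), where 27.5% of all 12221 probes were called, 14.2% higher and 13.4% lower. The median member difference was 0.00, as over all probes. Arrays did not overlap for 4 members higher and 4 lower (7.34%), against 15.4% of all probes (7.93% higher and 7.45% lower). Small-subunit probes split into 4 higher and 4 lower of 44, and large-subunit probes into 4 and 8 of 65.

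Among the called members, RPS23 gave the rise with the lowest adjusted p. It read 9.16, 9.30 and 9.50 on HIP1-labelled arrays, against 8.39, 8.66 and 8.73 on vector arrays. The difference was 0.72 (95% interval 0.52 to 0.92, adjusted p = 5.86e-05). RPL30 had a larger rise, 0.80, and was not called. Its arrays overlapped through HIP1-labelled array 6, at 12.49 where the highest vector array read 13.29. RPL10A, an L1-stalk protein, was 0.33 higher without overlap, at 14.32, 14.37 and 14.43 against 13.97, 14.05 and 14.12 (adjusted p = 1.47e-03). RPS27L rose by 0.51, with 13.06, 13.17 and 13.53 on HIP1-labelled arrays, against 12.14, 12.80 and 12.97 on vector arrays (adjusted p = 0.0138). RPL37 rose by 0.45 (adjusted p = 2.31e-03), and neither it nor RPS27L had overlapping arrays. RPL5 was 0.50 higher with overlapping arrays (adjusted p = 0.0170). RPL9 by ILMN_2408415 (0.56), RPS15A by ILMN_2337241 (0.44) and RPS14 by ILMN_2338785 (0.27) were called while brighter probes of the same genes were not. All probes rose for RPS15A (0.35 to 0.77, the 0.77 from the uncalled ILMN_2255310) and for RPS14 (0.22 to 0.27). Those of RPL9 spanned -0.10 to 0.56.

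Among the falls, RPS24 by ILMN_2399893 led. That probe read 8.27, 8.99 and 9.28 on HIP1-labelled arrays, against 9.63, 9.96 and 10.11 on vector arrays, a difference of -1.02 (95% interval -1.35 to -0.69; adjusted p = 2.33e-04), without overlap. Its brighter probe gave -0.33 (adjusted p = 0.125). RPL29 was lower by both probes, -0.95 and -0.97 (adjusted p = 5.90e-03 and 8.47e-03), reading 7.48, 8.10 and 8.36 on HIP1-labelled arrays, against 7.96, 9.21 and 9.35 on vector arrays for ILMN_1737517, with overlap through vector array 6. RPL36 by ILMN_1771462 was 0.78 lower and RPS15 by ILMN_2219131 0.65 lower, both without overlap (-0.78 and -0.65, adjusted p = 1.22e-04 and 1.90e-03). Brighter probes of these genes were not called. They gave -0.13 for RPL36 (adjusted p = 0.249) and 0.12 each for RPS15's ILMN_2046856 and ILMN_2219134 (adjusted p = 0.443 and 0.485). RPL10L fell by 0.40 (adjusted p = 1.01e-03), at 7.46, 7.61 and 7.74 against 7.92, 7.97 and 8.17, again without overlap. RPL34, RPL13, RPL28, RPL36A, RPS29 and RPS6 each had a probe called lower, with differences between -0.70 and -0.40. For RPL13, RPS29 and RPS6 it was a dimmer probe. Their brightest probes were not called, at 0.25, -0.09 and -0.31 (adjusted p = 0.142, 0.766 and 0.175). The dimmer probe of RPL34 gave 0.00.

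The PNT1a counts rest on the arrays numbered 6. Without HIP1-labelled array 6 they were 28 higher and 16 lower (38.3% of all probes called), and without both arrays numbered 6 they were 30 and 21 (45.1%). Arrays of PNT1a were also cut into 3 clusters, a chosen number, by the residuals of other probes, each holding both groups. With these as a block the counts were 24 and 25 (47.6%). Because the clusters come from residuals of the same arrays, the block takes out residual spread by construction. Within the clusters the member median was 0.00, 0.05 and -0.15, the last from the 2 arrays numbered 6. Summed fibroblast markers read 45.18 to 46.93 on HIP1-labelled and 46.29 to 47.52 on vector arrays, and leukocyte markers 31.29 to 33.46 and 31.32 to 34.03; their part was not tested. Calls of RPL28, RPS14, RPS29 and RPL9 were lost on leaving out single other arrays: any of vector arrays 1 to 4 or HIP1-labelled array 2 for RPL28 (adjusted p up to 0.0660), vector array 1, 3, 4 or 5 or HIP1-labelled array 1, 2, 3 or 5 for RPS14 (up to 0.0802), vector array 1, 2 or 5 or HIP1-labelled array 4 or 5 for RPS29 (up to 0.0589), and vector array 5 for RPL9 (0.0524).

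In LNCaP few members changed, and by less than 0.5. Of 111 tested probes 4 were higher and 2 lower on HIP1-labelled arrays (5.41%), where 7.32% of all 12014 probes were called, 3.15% higher and 4.18% lower. Arrays did not overlap for 3 members higher and 1 lower, against 4.04% of all probes (1.5% higher and 2.54% lower). The median was 0.04, with 0.01 over all probes, and the span ran from -0.33 to 0.46. RPS29 by ILMN_2298818 read 10.89, 10.97 and 11.16 on HIP1-labelled arrays, against 10.20, 10.56 and 10.82 on vector arrays, without overlap (0.46; adjusted p = 5.57e-03). RPL17 by ILMN_1655422 spanned 12.94, 13.06 and 13.22, against 12.52, 12.71 and 12.89 (0.36; adjusted p = 2.80e-03), also without overlap. RPL22 read 12.31, 12.35 and 12.41, against 12.06, 12.12 and 12.24 (0.22; adjusted p = 0.0216), and RPS24 by its brighter probe was 0.33 higher (adjusted p = 0.0379). RPS26 by ILMN_1755664 was lower without overlap, at 7.11, 7.23 and 7.31 against 7.39, 7.55 and 7.68 (-0.32; adjusted p = 4.09e-03), and RPS15 by ILMN_2219131 was lower with overlap (-0.33; adjusted p = 0.0132).

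Other probes of RPS29, RPL17, RPS24, RPS26 and RPS15 were not called in LNCaP. With the spread shared over all 24 arrays, limma called 0 members in LNCaP, where 1.96% of all probes were called. At an unadjusted p under 0.05 that fit had 3 members higher and 4 lower. The RPS24 call was lost without vector array 1, 3, 4 or 5 or HIP1-labelled array 2, 4, 5 or 6 (differences 0.26 to 0.41, adjusted p up to 0.0967) and the RPL22 call without HIP1-labelled array 1 (adjusted p 0.0510), while leaving out vector array 3 gave 6 members higher and 5 lower. With the arrays cut in the same way into a chosen number of 2 clusters as a block, 9 were higher and 3 lower (9.71% of all probes called). The member medians within these clusters were 0.04 and 0.06.

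The differences of HIP1-labelled and vector arrays were set side by side for the 107 probes tested in both lines. They had the same sign at 71 of them, with a correlation across probes of 0.37, which describes probes that share arrays. Both lines called 2 of them: RPS15's ILMN_2219131 was lower in both (-0.33 in LNCaP and -0.65 in PNT1a), and RPS29's ILMN_2298818 was higher in LNCaP and lower in PNT1a (0.46 and -0.48).

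**Figure D4:**
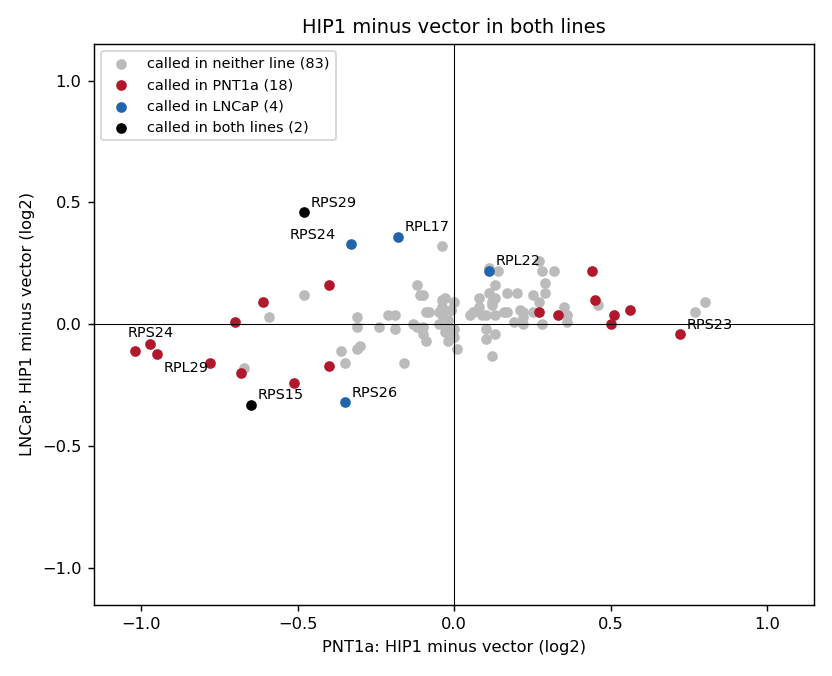
Difference of HIP1-labelled minus vector arrays (log2) in PNT1a (x axis) and in LNCaP (y axis) for the 107 ribosomal protein probes tested in both lines, coloured by which line called them. The differences span -0.33 to 0.46 in LNCaP and -1.02 to 0.80 in PNT1a, and most points lie near 0 in LNCaP.

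The test of the difference between lines, the LNCaP effect minus the PNT1a effect, called 9 members higher and 4 lower of 107 (12.1%), where 22.2% of 10299 probes were called, 10.4% higher and 11.8% lower. The higher ones had a negative difference in PNT1a beside a smaller or positive one in LNCaP: RPS29 by ILMN_2298818 (0.93; adjusted p = 5.21e-04), RPS24 by both probes (0.90 and 0.66), RPL29 by both (0.83 and 0.89), RPL34 and RPL28 (0.71 each), RPL36 by its dimmer probe (0.61) and RPS6 by its dimmer probe (0.55). The lower ones were RPS23 (-0.76; adjusted p = 1.19e-05), RPL5 (-0.49), RPS27L (-0.47) and RPL10A (-0.29), which rose in PNT1a and lay between -0.04 and 0.04 in LNCaP. Leaving out any single one of 16 of the 24 arrays ended the RPL5 call (adjusted p up to 0.0850): vector array 1, 3, 4 or 5 or HIP1-labelled array 1, 2, 3, 5 or 6 of PNT1a, and vector array 1, 3 or 5 or HIP1-labelled array 1, 3, 5 or 6 of LNCaP. Without PNT1a vector array 6 the counts had 14 higher, without PNT1a HIP1-labelled array 6 they had 15 lower, and without both they were 18 and 17 (35.3% of all probes called).

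RPS23, RPL29 and RPS24's dimmer probe stood out in both the line comparison and the PNT1a comparison, which share the PNT1a vector arrays, so their values in those comparisons are not independent. RPS23 was 2.54 higher in LNCaP and 0.72 higher with HIP1 label in PNT1a, RPL29 2.36 higher and 0.95 lower (-0.95), and RPS24's ILMN_2399893 2.16 higher and 1.02 lower (-1.02).

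Genes that make, control or work with ribosomes were read from separate lists, by the brightest probe of each gene. Ribosome biogenesis factors were higher in LNCaP vector cultures at 25 of 41 genes and lower at 11, with a median of 0.45. Over all probes 76.5% were called in this comparison, 39.6% higher and 36.9% lower, with a median of 0.03; of the biogenesis genes 87.8% were called, 61% higher and 26.8% lower. RPF2, which helps load the 5S RNA, was 1.77 higher (12.11 ± 0.10 against 10.34 ± 0.29, SD, n = 6 each; adjusted p = 1.45e-09), and PPAN 1.56 higher. TAF1C, a subunit of the RNA polymerase I factor SL1, was 1.34 lower (-1.34). Elongation factors were higher at 7 of 11 genes and lower at 2 (median 0.28), with EEF1G 1.66 higher and TPT1 -0.20. Initiation factors were higher at 16 of 25 and lower at 6 (median 0.33), led by the eIF3 subunits EIF3M (1.52) and EIF3I (1.32). Mitochondrial ribosomal proteins, which serve a separate ribosome, were higher at 54 of 75 and lower at 9 (median 0.56), MRPL24 by 2.19. Of 16 genes of mTOR and MYC control, 10 were higher and 3 lower (median 0.61); DDIT4, an inhibitor of mTOR complex 1, was 3.15 higher and TSC1 -0.81.

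With the HIP1 label in PNT1a, where 27.5% of all probes were called (14.2% higher and 13.4% lower), ribosome biogenesis had 1 of 38 genes higher and 4 lower (median -0.06), with NOLC1 at 8.10 ± 0.27 on HIP1-labelled and 9.04 ± 0.23 on vector arrays (-0.94; adjusted p = 1.76e-04) and RRP12 at -0.92. Elongation factors had 2 higher and 2 lower of 11, EEF1A2 at -1.26 and PABPC1 at 0.51. Initiation factors had 3 higher and 1 lower of 25, the fall being EIF3H (11.46 ± 0.09 against 12.29 ± 0.12; -0.84; adjusted p = 4.15e-06). Mitochondrial ribosomal proteins had 7 higher and 8 lower of 75, and mTOR and MYC control 2 and 2 of 13, where DDIT4 was 2.22 higher (11.26 ± 0.31 against 9.04 ± 0.74; adjusted p = 6.81e-05). In LNCaP, where 7.32% of all probes were called (3.15% higher and 4.18% lower), 5 of 41 biogenesis genes were lower and 0 higher (median -0.07), among them RRP9, NOP16 and NOLC1 at -0.31, -0.30 and -0.24. Initiation factors had 2 higher (EIF4A2 at 0.37, EIF1 at 0.30) and 1 lower (EIF3B at -0.22) of 25. Limma called 0 of 11 elongation factors, 0 of 16 control genes and 0 of 75 mitochondrial ribosomal proteins in LNCaP (1, 4 and 9 at an unadjusted p under 0.05).

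Ribosomal proteins and relatives outside the symbol rule gave 5 tested genes, among them FAU, the source of a small-subunit protein, and RPL22L1, the paralog of RPL22. RPL22L1 was 0.56 higher in LNCaP vector cultures (8.42 ± 0.10 against 7.85 ± 0.21; adjusted p = 5.86e-05) and 0.46 lower on HIP1-labelled PNT1a arrays (7.39 ± 0.10 against 7.85 ± 0.21; -0.46; adjusted p = 3.54e-03). FAU differed by 0.15 between the lines (adjusted p = 0.104). Of 2 tested genes of the p53 response list, CDKN1A was 0.35 higher on HIP1-labelled LNCaP arrays (adjusted p = 0.0100), and CDKN2A was 0.44 higher on HIP1-labelled PNT1a arrays (adjusted p = 8.78e-03).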

How the data were processed

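Values were taken from the authors' deposited table of log2 intensities for 24 arrays, with 0 gaps. After sorting, its columns lie within 0.052 of each other, so a common distribution had been imposed before deposit. Which software, background correction and normalization did this is not stated in the labels. A deposited table of linear intensity was used only to describe scale: 6 of its 24 value columns could be mapped to a sample and the other 18 were not used, so the planned recalculation from raw intensities was not run. Symbols came from the platform annotation (28098 probes with 1 symbol, 13 with several, 20692 with none).

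The background level (6.97) adds 3 SDs of the dim side of the distribution (0.163 each) to its peak at 6.48. Fits used limma 3.58.1 in R 4.3.3 (lmFit, eBayes, prior from the tested probes): each line's 12 arrays alone, the 12 vector arrays for the line comparison, and all 24 arrays for the difference between effects. Calls needed a Benjamini-Hochberg p under 0.05 over all probes tested. The fits were tested on simulated data, with noise drawn independently for each probe and array. Shared deviations, such as those of the PNT1a arrays numbered 6, were not part of that simulation. The number of arrays limits precision.

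Genes were named by role, by largest called differences without overlap (up to 6 each way), by brightness, by disagreement between probes and by position at the background level; all called probes are counted. The members and lists were chosen with earlier results of these data known. Alternatives changed scaling, filter, spread, prior, probe rule, blocks and arrays.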

Additional observations from a re-analysis of the deposited data

Results flagged for a closer look

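Of 162 groups of 6 arrays examined (named genes by their brightest probe, and the mean of member probes), 30 held an array whose gap to its neighbour exceeded Dixon's critical value, which chance gives in about 1 of 20. In PNT1a all 24 were array 6. The mean of member probes was 11.54 on HIP1-labelled array 6 and 11.74 on vector array 6. Low values on both arrays numbered 6 (HIP1-labelled first, then vector) were found for RPL22 (8.96 and 9.88), RPL28 (7.65 and 7.80), RPL34 (9.16 and 10.10), RPL39L (8.07 and 10.07), RPS14 (14.43 and 14.09), RPS29 (14.52 and 14.51) and RPS7 (8.05 and 9.10). HIP1-labelled array 6 alone was low for RPL41 (14.66) and RPL7 (6.96) and high for RPL35 (14.70). Vector array 6 alone was low for RPL29 (7.96), RPL39 (13.43), RPLP1 (13.42), RPS25 (14.82) and RPS27L (12.14). In LNCaP, 6 groups held such an array: HIP1-labelled array 2 was low for RPL11 (13.79), array 3 high for RPS27 (15.37), array 4 high for RPL7 (9.48) and low for RPLP2 (14.33), vector array 4 was low for RPLP2 (14.33) and vector array 6 high for RPS7 (11.82).

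The HIP1 effect in LNCaP minus that in PNT1a passed limma's adjusted threshold for 8 genes by their brightest probe: RPL29 (0.83), RPL28 (0.71), RPL34 (0.71), RPS24 (0.66), RPS23 (-0.76), RPL5 (-0.49), RPS27L (-0.47) and RPL10A (-0.29).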

How the results depend on the processing

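In PNT1a, the 8 members higher and 12 lower (27.5% of all probes called) became 15 and 17 with one fit over all 24 arrays (37.8%). With the variance prior taken from all probes of the table (chosen after seeing the data) they were 15 and 13 (33.5%). Clusters of arrays found from the residuals of other probes, as a block, gave 24 and 25 (47.6%). The brightest probe of each gene gave 5 and 5 (29.2%), and the mean of a gene's probes 5 and 7 (29.4%). Without both arrays numbered 6 they were 30 and 21 (45.1%). In LNCaP, the 4 higher and 2 lower (7.32% of all probes called) became 2 and 2 without a filter on dim probes (1.12%). One fit over 24 arrays gave 0 and 0 (1.96%), and the cluster block 9 and 3 (9.71%). The brightest probe gave 2 and 1 (8.11%), and the mean of probes 1 and 1 (8.48%). Between the lines, 78 higher and 10 lower of 113 (76.5% of all probes called, median 0.45) became 45 and 8 of 70 with the brightest probe (77.3%, median 0.38). With the mean of a gene's probes they were 53 and 7 of 70 (77.6%, median 0.63). The difference of effects, 9 higher and 4 lower (22.2% of all probes called), became 20 and 11 with the cluster block (37.9%). It became 5 and 4 with the brightest probe (23.7%), and 18 and 17 without both arrays numbered 6 (35.3%). Causes were not tested.

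With the replicate block, PNT1a gave 19 higher and 20 lower (36.3% of all probes called) and the difference of effects 16 and 9 (29.7%). Deviations of same-numbered HIP1-labelled and vector arrays correlated at 0.70 for number 6 of PNT1a. At its other numbers they correlated between -0.04 and 0.33, and in LNCaP between -0.24 and 0.32. The vector array of the same number was the closest match only at number 6 (0.70 in PNT1a, 0.13 in LNCaP). The main fits took no pairs, and whether samples were paired was not settled. Leaving out single arrays gave 6 to 28 higher and 10 to 17 lower in PNT1a, 3 to 6 higher and 2 to 5 lower in LNCaP, 74 to 79 higher and 9 to 11 lower between the lines, and 9 to 14 higher and 3 to 15 lower for the difference of effects. Medians lay between -0.05 and 0.10, 0.03 and 0.05, and 0.40 and 0.48 in the first 3 comparisons. Averaging probes reversed the sign of 3 line differences, to 1.02 for RPS24, 0.63 for RPL41 and 0.02 for RPL36. Of the single-probe values, 4510 kept direction and side of the threshold, 88 lost it and 87 gained it.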
